A study of Homo sapiens with 2 samples.

Results

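The genes described here encode the enzymes that oxidise and conjugate drugs, other foreign compounds, steroids, retinoids and vitamin D. They were chosen by symbol alone: cytochrome P450 genes (CYP and a digit, without CYP51A1 of cholesterol synthesis), UDP-glucuronosyltransferases (UGT), sulfotransferases (SULT), cytosolic glutathione transferases (GST classes A, K, M, O, P, T and Z) and microsomal glutathione transferases (MGST). The rule found 91 genes of the 19775 that had at least 1 probe set naming a single gene. Of these 91, 55 were CYP, 16 GST, 9 UGT, 8 SULT and 3 MGST genes, and 8 of the 91 were pseudogenes, antisense RNAs or read-through transcripts. Each gene was read from the brightest of its probe sets (the highest mean of both arrays on the log2 scale). It was counted as detected where that signal reached the array median in 1 or both cultures, which 47 of the 91 genes and 13138 of all genes did. The 44 others, 29 CYP, 6 UGT, 5 SULT and 4 GST genes, stayed below both medians, with log2 differences from -4.30 (GSTT1) to 4.46 (CYP4F8) that such dim signals do not fix. A further 28 enzymes of these families, among them CYP3A7, UGT2B7 and most UGT1A enzymes, had no probe set naming them alone and were not counted.

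The study asked which genes follow the zinc finger protein ZNF300 in A549, a human lung adenocarcinoma line. A549-LV5 cells carried the LV5 lentiviral vector with a random DNA insert (the control that the study names A549-ZNF300-NC), and A549-ZNF300 cells carried LV5 with the full coding sequence of ZNF300 transcript variant 1. Both vectors also carry green fluorescent protein and puromycin resistance, and both cultures were trypsinised before RNA extraction. Each culture was hybridised to 1 array (Affymetrix Human U133 Plus 2.0), so the 2 arrays hold no replicates, no test was possible, and "higher" and "lower" below compare 1 array with 1 array, counted from 2-fold. Any difference between these cultures other than the ZNF300 insert cannot be told apart from it.

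The ZNF300 log2 signal was 4.16 in A549-LV5 and 8.91 in A549-ZNF300. The array medians were 6.14 and 6.03 on the log2 scale, and the arrays correlated at 0.87 across all probe sets and at 0.68 across the 91 genes. The epithelial markers differed between the cultures, which share 1 labelled cell line. All 5 of them were at least 2-fold higher in A549-ZNF300, with log2 signals from 1.20 (CDH1) to 13.45 (KRT18) in A549-LV5 and from 8.84 (EPCAM) to 15.01 (KRT18) in A549-ZNF300, and KRT19 and CDH1 lay below the median in A549-LV5. Of 5 alveolar type II markers 4 were detected and 0 were 2-fold apart. Of the markers of other cell types, COL1A1 was 7.90 and 10.45, PECAM1 was 6.77 and 7.04, and PTPRC and ALB were not detected on either array. The part of this epithelial shift in the values below was not tested.

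Metabolism of foreign compounds is usually described in phases. In phase I the cytochromes P450, haem enzymes that take electrons from P450 reductase or from ferredoxin, insert oxygen into their substrates, and in phase II transferases attach glucuronic acid, sulfate or glutathione. The same families make and destroy hormones: CYP27B1 makes active vitamin D and CYP24A1 inactivates it, and CYP26 enzymes inactivate retinoic acid. A549 cells carry a mutated KEAP1, the inhibitor of the transcription factor NRF2, and are known for high levels of NRF2 target enzymes.

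Of the 47 detected genes, 15 (31.9%) were at least 2-fold higher in A549-ZNF300, where 13.3% of all detected genes were, and 8 (17%) were at least 2-fold lower, where 15.2% of all detected genes were. The share of higher genes lay above the background and that of lower genes near it. The median log2 difference (A549-ZNF300 minus A549-LV5) was 0.33 over the 47 genes and -0.07 over all detected genes. Most of these differences began or ended in the dim range. Of the 15 higher genes, 12 reached the array median only in A549-ZNF300, and of the 8 lower genes, 6 reached it only in A549-LV5. A gene that is detected through 1 array alone had to differ, so these counts do not stand on their own. With each dim signal set to the median of its own array, 7 genes (14.9%) were still higher, against 10.4% of all detected genes, and 5 (10.6%) were still lower, against 12.2%. These shares are near the background in both directions. Among the 26 genes at or above the median on both arrays, 3 (11.5%) were higher, against 9.28% of 11177 genes, and 2 (7.69%) were lower, against 11.6%.

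**Figure D1:**
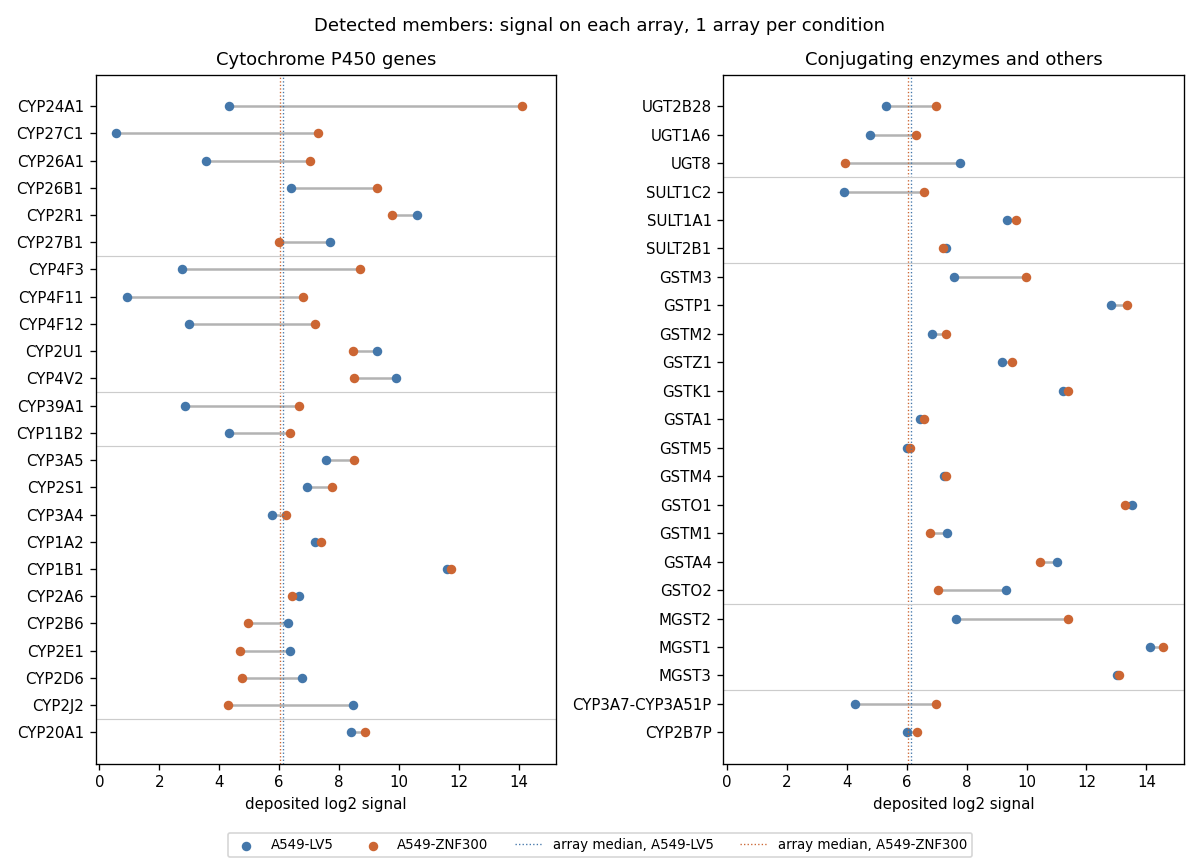
Deposited log2 signal of the 47 detected genes (horizontal axis) in A549-LV5 (blue) and A549-ZNF300 (orange), 1 array each, grouped by role and joined by a grey line; dotted lines are the array medians of 6.14 and 6.03. The line of CYP24A1 runs from 4.33 to 14.11, while most GST genes show short lines.

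In the plot of signals by role, the long lines are mostly those of the vitamin A and D enzymes and of the CYP4F genes. Most glutathione transferases show short ones.

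The enzymes of vitamin D and retinoids were the role group with the most higher genes. All 6 on the array were detected, 4 were higher and 1 was lower, beside 13.3% and 15.2% of all detected genes. The median log2 difference was 3.18. Of the higher ones, CYP24A1, CYP27C1 and CYP26A1 were detected through A549-ZNF300 alone. After dim signals were raised to the array median, 3 remained past 2-fold on the higher side and 1 on the lower side. The same shares of all detected genes were 10.4% and 12.2%. The median of the 6 was then 1.03. CYP24A1, the mitochondrial enzyme that inactivates vitamin D, had a log2 signal of 4.33 in A549-LV5 and 14.11 in A549-ZNF300. Its call, a detection flag that the authors deposited for part of the probe sets, was absent in A549-LV5 and present in A549-ZNF300. It thus went from below the array median to far above it. The log2 difference was 9.78, and the signal in A549-ZNF300 was at least 250-fold above the A549-LV5 array median. CYP27B1, which makes active vitamin D, went the other way: 7.69 in A549-LV5, where it was called present, and 5.99 in A549-ZNF300, where it was called absent, a log2 difference of -1.70. CYP2R1, a vitamin D 25-hydroxylase, was 10.59 and 9.79. A second probe set of CYP2R1 was 7.55 and 7.63, so the -0.80 of the brighter one was not seen in both. The vitamin D receptor VDR, which binds the product of CYP27B1, was 10.10 in A549-LV5 and 8.07 in A549-ZNF300.

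Both CYP26 enzymes that the array measured were higher. CYP26A1 was 3.56 in A549-LV5 (absent) and 7.05 in A549-ZNF300 (marginal), a log2 difference of 3.49 and at least 1.87-fold against the array median. CYP26B1 was 6.40 (absent) and 9.28 (present), a log2 difference of 2.87, or at least 7.33-fold given the absent call. A second CYP26B1 probe set stayed below the median on both arrays, at 4.71 and 3.15, and the median signals of both differed by 0.66, under 2-fold. CYP27C1, which desaturates retinol in human skin, was 0.57 (absent) and 7.30 (present), at least 2.23-fold above the A549-LV5 array median. The promoter of CYP26A1 is shown because it holds a direct repeat of the kind that retinoic acid receptors bind, 2 copies of AGTTCA with 5 bases between them, read on the other strand. It is the RefSeq sequence of GRCh38.p14, chr10:93073643-93073892, plus strand, which ends at the base before the start site, and the repeat is in capitals.
CYP26A1: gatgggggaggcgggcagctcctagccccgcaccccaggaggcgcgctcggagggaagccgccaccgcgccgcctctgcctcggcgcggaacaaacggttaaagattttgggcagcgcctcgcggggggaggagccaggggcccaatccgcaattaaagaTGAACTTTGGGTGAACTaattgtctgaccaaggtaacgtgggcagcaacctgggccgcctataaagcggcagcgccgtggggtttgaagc
The repeat lies 90 to 74 bases before the start. Searched on both strands, these letters occurred in 3 of 35116 promoter windows of this length (0.00854%) and in 1 of the 85 windows of the genes described here. The related repeat, 2 copies of AGGTCA with 5 bases between them, occurred in 1 of 35116 windows and in 0 of the 85. The same copies with 3 bases between them, a form known for the vitamin D receptor, occurred in 2 of 35116 and in 0 of the 85. CYP24A1 had no promoter window and was not searched for any of these repeats. A match of letters is not a binding site, and the arrays do not measure binding. The retinoic acid receptors themselves were 8.69 and 7.96 (RARA), 9.72 and 10.22 (RARB) and 7.93 and 6.65 (RARG) in A549-LV5 and A549-ZNF300, and their partner RXRA was 8.73 and 10.02. Their probe sets did not all go one way: the detected ones of RARA differed by -0.95 to 2.37 and those of RXRA by -0.75 to 1.29, so no direction is given for either.

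The detected fatty acid hydroxylases did not all go one way. Of 12 on the array, 5 were detected, 3 were higher and 1 was lower, beside 13.3% and 15.2% of all detected genes. The 3 higher genes were all CYP4F genes. CYP4F3, the omega-hydroxylase that inactivates leukotriene B4 in neutrophils, was 2.77 in A549-LV5 (absent) and 8.70 in A549-ZNF300 (present), at least 5.90-fold against the array median. CYP4F11, a hydroxylase of fatty acids and vitamin K, was 0.94 (absent) and 6.80 (present), at least 1.57-fold. CYP4F12, which hydroxylates arachidonic acid and some antihistamines, was 2.99 and 7.21, or 2.10-fold against the array median, and has no deposited call. All 3 signals in A549-LV5 lay well below the array median, so the size of these differences is known at most as a bound. In contrast, CYP4V2, a fatty acid hydroxylase mutated in Bietti crystalline dystrophy, was lower on both of its bright probe sets. They were 9.90 and 9.30 in A549-LV5 and 8.50 and 7.89 in A549-ZNF300, a log2 difference of -1.41 each. CYP2U1, a hydroxylase of long-chain fatty acids, was 9.27 and 8.46 on its brighter probe set and 7.81 and 7.83 on another.

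The 6 CYP4F genes on the array are neighbours on chromosome 19, in the RefSeq order CYP4F22, CYP4F8, CYP4F3, CYP4F12, CYP4F2 and CYP4F11. CYP4F8 (0.43 and 4.90) and CYP4F2 (1.49 and 5.05) were below the median on both arrays and so not detected, although their deposited signals were higher in A549-ZNF300. CYP4F22, at the end of the row, was 4.83 and 3.89. A probe set that names both CYP4F2 and CYP4F3 stayed below the median on both arrays, at 2.99 and 5.57. The signal of CYP4F3 thus rests on 1 probe set. The CYP4F genes are close in sequence, and signal of 1 gene in the probe set of another was not tested. The promoters of CYP4F3 and CYP4F11 are shown because both genes were higher and their windows share 2 runs of 19 bases, in capitals. They are RefSeq sequences of GRCh38.p14, chr19:15641062-15641311 on the plus strand and chr19:15934530-15934779 on the minus strand, printed 5′ to 3′.
CYP4F3: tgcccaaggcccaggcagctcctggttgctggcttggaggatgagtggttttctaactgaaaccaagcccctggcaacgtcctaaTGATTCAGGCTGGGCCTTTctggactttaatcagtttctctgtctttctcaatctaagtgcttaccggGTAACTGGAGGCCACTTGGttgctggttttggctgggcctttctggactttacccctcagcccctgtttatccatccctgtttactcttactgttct
CYP4F11: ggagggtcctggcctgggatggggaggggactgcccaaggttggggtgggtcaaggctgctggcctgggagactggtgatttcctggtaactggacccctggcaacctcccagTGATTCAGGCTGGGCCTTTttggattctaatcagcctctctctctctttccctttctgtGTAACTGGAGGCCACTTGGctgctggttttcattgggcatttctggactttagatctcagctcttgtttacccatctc
The runs lie 165 to 147 and 97 to 79 bases before the start of CYP4F3, and 137 to 119 and 78 to 60 bases before that of CYP4F11. Each occurred in 2 of 35116 windows, namely these. The runs were taken from these 2 windows, so a count of at least 2 was fixed in advance. CYP4F11 has 2 RefSeq windows, and the one printed was chosen after seeing that the other shared 0 bases in runs of 15 or more with CYP4F3. The windows of CYP4F22, CYP4F8 and CYP4F2 shared 0 such bases. CYP4F12, which was also higher, was not compared.

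**Figure D2:**
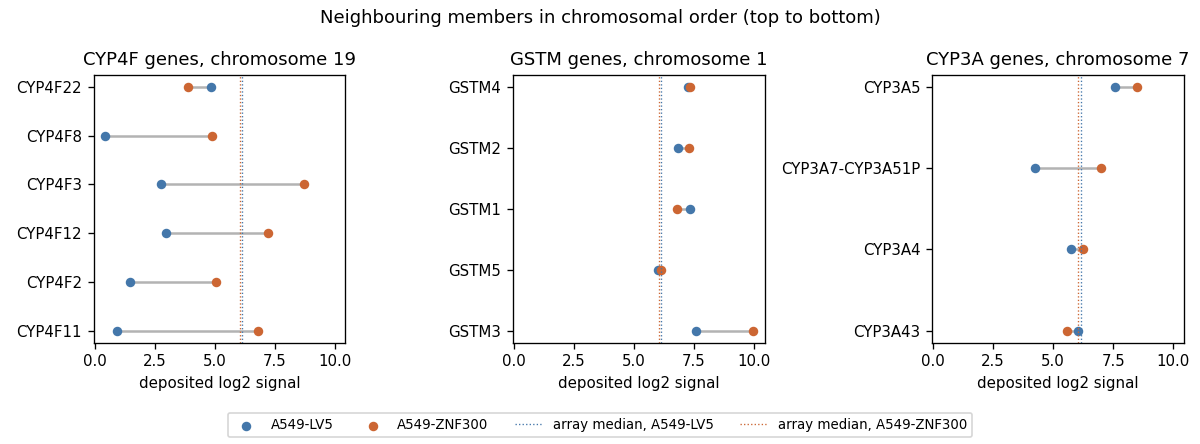
Deposited log2 signal (horizontal axis) in A549-LV5 (blue) and A549-ZNF300 (orange) for neighbouring CYP4F, GSTM and CYP3A genes, listed from top to bottom in chromosomal order; dotted lines are the array medians. CYP4F3, CYP4F12 and CYP4F11 cross the medians, whereas among the GSTM genes GSTM3 alone is over 2-fold apart.

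In the plot of neighbouring genes, the CYP4F lines run from the dim side across the medians or towards them, except that of CYP4F22. Within the GSTM and CYP3A rows, 1 gene each was at least 2-fold higher on the probe sets used and the others were under 2-fold. The CYP3A row depended on the probe set: another of CYP3A4 was 3.52 and 6.97, and another of CYP3A5 differed by 2.06.

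Of the 17 P450 enzymes best known for drugs, 10 were detected, 0 were at least 2-fold higher and 4 were lower, beside 13.3% and 15.2% of all detected genes, with a median log2 difference of -0.05. All 4 lower genes were below the median in A549-ZNF300 and so were detected through A549-LV5 alone. With dim signals raised, 0 were higher and 1 was lower, beside 10.4% and 12.2%. CYP2J2, an epoxygenase of arachidonic acid, was 8.47 in A549-LV5 (present) and 4.29 in A549-ZNF300 (absent), a log2 difference of -4.19 and at least 5.42-fold lower against the array median. The other lower genes were dim. CYP2D6, an enzyme for many antidepressants and opioids, was 6.78 and 4.75. CYP2E1, which oxidises ethanol and paracetamol, was 6.38 and 4.68 on the probe set used, called present on both arrays, and 6.73 and 4.30 on another, called present and absent. CYP2B6, which oxidises cyclophosphamide, was 6.31 and 4.96. CYP2J2 was the 1 that stayed at least 2-fold lower with dim signals raised. CYP2A6, the nicotine oxidase, had 4 detected probe sets with signals of 6.36 to 6.67 in A549-LV5. Their log2 differences ran from -0.23 on the brightest to -3.17, so the level of CYP2A6 depended on the probe set.

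CYP1B1, which oxidises oestrogens and polycyclic hydrocarbons, had a signal well above the median on both arrays and differed little, at 11.61 in A549-LV5 and 11.75 in A549-ZNF300. Its 3 detected probe sets differed by 0.14 to 0.31. CYP1A1, another enzyme of that subfamily, was not detected (5.12 and 2.03). CYP3A5, which oxidises many drugs and steroids, was 7.58 and 8.49. Its 3 detected probe sets differed by 0.73 to 2.06, and with the arrays centred on their medians the log2 difference of the first was 1.02, past 2-fold. Its neighbour CYP3A4 was 5.76 and 6.25 on the probe set used and 3.52 and 6.97 on another. The read-through transcript CYP3A7-CYP3A51P was 4.26 and 6.98, or 1.78-fold against the array median. These probe sets of CYP3A4 and CYP3A7-CYP3A51P end in _x_at, the mark of the platform for probes that can bind other genes. Their values thus cannot be assigned firmly to 1 gene. Probe sets that name CYP3A7 and this read-through together went opposite ways, 2.59 and 5.23 on the first and 6.64 and 5.71 on the next. CYP2S1, which is expressed in epithelia, was 6.94 and 7.77, and CYP20A1, an orphan enzyme, was 8.40 and 8.86. CYP1A2, the caffeine oxidase of the liver, was 7.22 and 7.40 on an _x_at probe set.

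Of the P450 genes of steroid and bile acid synthesis, 2 of 11 were detected. CYP39A1, a 7-alpha-hydroxylase of 24-hydroxycholesterol, was 2.85 in A549-LV5 and 6.67 in A549-ZNF300. CYP11B2, the aldosterone synthase of the adrenal gland, was 4.35 and 6.37. With dim signals raised these were 1.44-fold and 1.17-fold apart, so neither reached a 2-fold difference. The other 9 stayed below the median on both arrays. Among them CYP17A1, the 17-alpha-hydroxylase of steroid synthesis, was 5.11 and 5.65, and CYP27A1, a sterol 27-hydroxylase, was 5.20 and 5.80. Most P450 genes of steroid and bile acid synthesis thus lay in the dim range on both arrays.

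**Figure D3:**
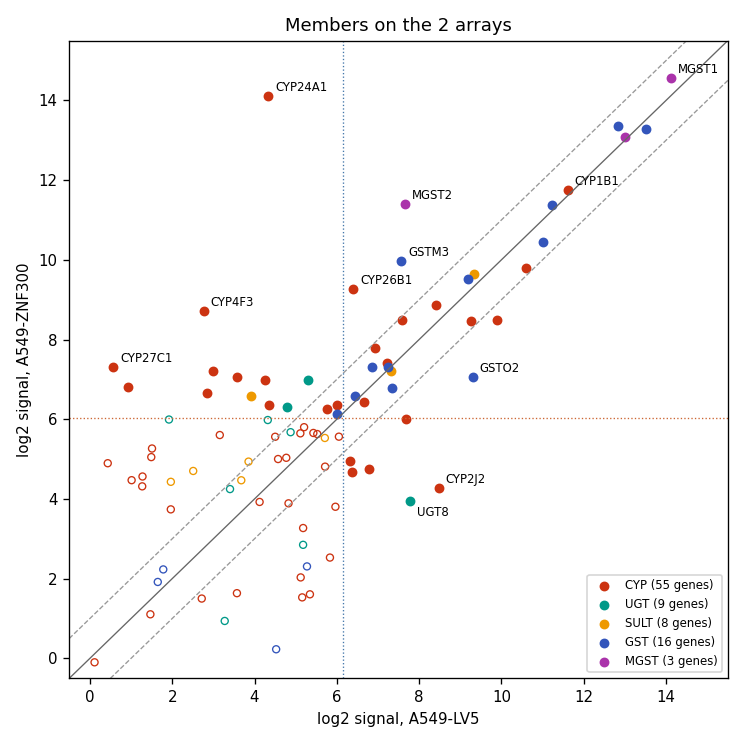
Log2 signal of all 91 genes in A549-LV5 (horizontal axis) and A549-ZNF300 (vertical axis), coloured by family, filled where detected (47) and open where not (44); the solid line marks equal signals, dashed lines 2-fold, dotted lines the array medians. The filled points off the dashed lines lie mostly in the upper left and lower right, where 1 array is below its median.

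The plot of the 2 arrays against each other shows how few genes were above both medians and apart. Those beyond 2-fold were CYP26B1, MGST2, GSTM3, CYP4V2 and GSTO2, of which CYP26B1 and MGST2 were nevertheless called absent in A549-LV5. The open points, which lie below both medians, spread widely about the line of equal signals, and without any filter 29 of the 91 genes would count as higher and 20 as lower, beside 17% and 19.5% of all 19775 genes.

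Most glutathione transferases differed little between the cultures. Of 19 GST and MGST genes 15 were detected, 2 were higher, 1 was lower and 12 were under 2-fold, with a median log2 difference of 0.14. Of all detected genes, 13.3% were higher and 15.2% were lower. MGST1, a membrane enzyme that also reduces lipid peroxides, was 14.13 in A549-LV5 and 14.55 in A549-ZNF300. GSTP1, the main cytosolic enzyme of many tumours, was 12.82 and 13.36. GSTO1, a thioltransferase, was 13.50 and 13.28, and MGST3 was 13.01 and 13.09. All 4 were thus far above the medians and under 2-fold apart on the probe sets used. For MGST1, the 3 bright probe sets differed by 0.40 to 0.43, and the dimmer ones differed by -0.58 and 1.26. GSTK1, a mitochondrial and peroxisomal enzyme, was 11.23 and 11.38. GSTA4, which conjugates the lipid peroxidation product 4-hydroxynonenal, was 11.01 and 10.44. GSTZ1, an isomerase of tyrosine breakdown, was 9.19 and 9.52, and GSTA1, the main enzyme of this kind in liver, was 6.44 and 6.58.

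The exceptions were MGST2, GSTM3 and GSTO2. MGST2, a membrane enzyme with leukotriene C4 synthase activity, was 7.66 in A549-LV5 and 11.39 in A549-ZNF300, a log2 difference of 3.73. Its signal in A549-LV5 lay above the array median but was called absent there, so the difference is given as at least 13.3-fold. GSTM3 was 7.57 and 9.96, called present on both arrays, a log2 difference of 2.39 or 5.25-fold. Its other detected probe set was 5.98 and 6.32, a difference of 0.34, so the call of GSTM3 rests on 1 probe set. The other GSTM genes were close together: GSTM4 was 7.24 and 7.32, GSTM2 was 6.85 and 7.31, GSTM1 was 7.34 and 6.78, and GSTM5 lay near the medians on both arrays with a log2 difference of 0.12. They are similar in sequence, and the probe sets of GSTM1, GSTM2 and GSTM4 carry the _x_at mark. GSTO2, a dehydroascorbate reductase, was 9.30 and 7.05, called present on both arrays, a log2 difference of -2.24 or 4.74-fold lower. Its close relative GSTO1, beside it on chromosome 10, differed by -0.22.

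Of the 9 UGT genes measured alone, 3 were detected. UGT8, which makes galactosylceramide rather than glucuronides, was 7.78 in A549-LV5 (present) and 3.95 in A549-ZNF300 (absent), and its second probe set was 7.04 (present) and 3.17 (absent). Both probe sets thus went from present to absent, with log2 differences of -3.83 and -3.86, and the first was at least 3.36-fold lower against the array median. UGT1A6, a glucuronosyltransferase of small phenols, was 4.78 (absent) and 6.31 (present), at least 1.12-fold higher. UGT2B28, a steroid enzyme, was 5.29 and 6.98, or 1.79-fold against the array median, on an _x_at probe set. UGT2B15, an androgen enzyme, was not detected on its probe set with the highest mean (4.32 and 5.98), although another was 1.85 and 6.19. UGT2A3 was likewise not detected (1.92 and 5.99). Both of these below-median probe sets were called absent in A549-LV5 and present in A549-ZNF300. With dim signals raised, 0 UGT genes were higher and 1, UGT8, was lower, beside 10.4% and 12.2% of all detected genes.

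The UGT1A enzymes share their last exons, and 7 probe sets name 5 to 9 of them at once. These were left out of every count above and were looked at for the locus as a whole. All 7 were at least 2-fold higher in A549-ZNF300, and all 7 were called absent in A549-LV5 and present in A549-ZNF300. In A549-LV5 their log2 signals ran from -0.35 to 6.86, with 5 of 7 below the median, and in A549-ZNF300 from 6.64 to 11.87. One of them went from 6.75 to 11.87, a log2 difference of 5.12. With dim signals raised, the differences of the 7 ran from 0.50 to 5.69, or from 1.42-fold to 51.7-fold. Because they overlap in sequence, they are not 7 separate measurements, and they do not say which of the UGT1A enzymes was higher. The probe set of UGT1A1 alone was 3.28 and 0.94, below the median on both arrays.

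**Figure D4:**
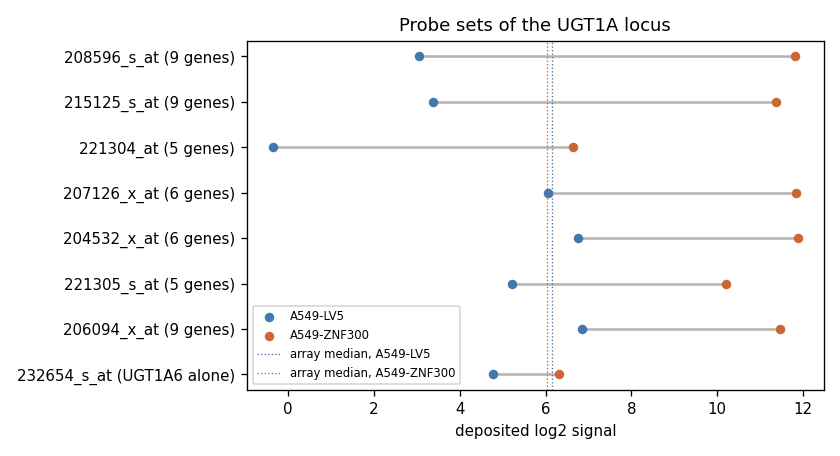
Deposited log2 signal (horizontal axis) in A549-LV5 (blue) and A549-ZNF300 (orange) of the 7 probe sets that name several UGT1A genes and of the probe set that names UGT1A6 alone; dotted lines are the array medians. All 7 shared probe sets lie between 6.64 and 11.87 in A549-ZNF300, to the right of their A549-LV5 points.

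The plot of the UGT1A locus also shows the probe set of UGT1A6 alone, which goes the same way and ends just above the median. All 8 signals in A549-LV5 were called absent, so the sizes of these shifts were not ranked.

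Of the 8 sulfotransferases, 3 were detected. SULT1C2, which sulfates phenols, was 3.92 in A549-LV5 (absent) and 6.58 in A549-ZNF300 (present), at least 1.36-fold higher. SULT1A1, the main phenol sulfotransferase, was 9.33 and 9.64, and its 3 probe sets differed by -0.27 to 0.51. SULT2B1, which sulfates cholesterol in skin, was 7.31 and 7.21. SULT1A1 and SULT2B1 were thus under 2-fold apart, and the probe sets shared by SULT1A3 and SULT1A4, not counted here, were 9.63 and 10.23 on the first and 9.81 and 10.33 on the next. The remaining detected gene was the pseudogene CYP2B7P, which lay just below the median in A549-LV5 and at 6.36 in A549-ZNF300, a log2 difference of 0.35.

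The deposited calls covered 26 of the 165 probe sets of these genes, since the authors' table of calls holds only probe sets at least 2-fold apart and not absent on both arrays. Of the 26, 10 went from absent in A549-LV5 to present in A549-ZNF300, 4 from absent to marginal, 5 from present to absent, and 7 were present on both. The same split over all probe sets of that table is not given here, so no tilt is read from these counts. The higher genes CYP4F12, CYP39A1, CYP11B2, CYP3A7-CYP3A51P and UGT2B28 and the lower genes CYP2D6 and CYP2B6 have no call on the probe set used. If the authors' table is complete, these probe sets were absent on both arrays. Their folds against the array median are then not lower limits. CYP4F12 is nevertheless among the genes counted as higher with dim signals raised. Between detected probe sets of 1 gene, the SD of the log2 difference had a median of 0.53 over 16 of these genes and 0.35 over 6607 genes in all. The differences of GSTP1 (0.54), GSTM1 (-0.55) and GSTA4 (-0.57) were about the size of that spread.

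The genes that sense and serve these enzymes were read from lists of their own. Of 17 receptors and sensors on the array, 16 were detected, 1 was higher and 7 were lower, beside 13.3% and 15.2% of all detected genes. Their median log2 difference was -0.73. The 1 higher gene was RXRA, whose probe sets did not all go one way. AHRR, a repressor of the aryl hydrocarbon receptor and a target of it, was 9.82 in A549-LV5 and 7.16 in A549-ZNF300. TIPARP, another of its targets, was 13.41 and 11.36. The receptor AHR itself was 10.72 and 9.39, and its partner ARNT was 9.40 and 8.73. NFE2L2, which encodes NRF2, was 13.26 and 12.53, and KEAP1 was 10.34 and 10.45. AHR, AHRR and TIPARP were thus lower together, while CYP1B1, a known AHR target, differed by 0.14. The receptor PXR (NR1I2) had no probe set naming it alone. As a description of sequence only, the AHR core GCGTG, searched on both strands, was in 24.7% of the 85 promoter windows and in 32.2% of all windows. The antioxidant response core TGACNNNGC was in 12.9% and in 10.9%.

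Of 6 partners of the P450 enzymes, 2 were higher and 0 lower, beside 13.3% and 15.2% of all detected genes. POR, the P450 reductase, was 8.96 and 9.90. FDX1, the ferredoxin of mitochondrial P450 enzymes such as CYP24A1, was 10.21 and 11.40, and the cytochrome b5 gene CYB5B was 11.18 and 12.51. Of 9 genes that supply the conjugating enzymes, 3 were higher and 0 lower, beside the same shares. UGDH, which makes UDP-glucuronic acid, was 12.72 and 13.91, GSR, the glutathione reductase, was 10.81 and 12.12, and GCLM, a subunit of the enzyme that starts glutathione synthesis, was 11.99 and 13.03. These genes were bright on both arrays, and their differences were small, from 1.04 to 1.31. On the median over probe sets GSR (0.95) and GCLM (0.36) were under 2-fold.

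Of 20 other enzymes of phases I and II, 18 were detected, 8 were higher and 2 were lower, with a median of 0.88. Of all detected genes, 13.3% were higher and 15.2% were lower. EPHX2, the soluble epoxide hydrolase that breaks down the epoxides CYP2J2 makes, was 1.92 (absent) and 8.75, at least 6.11-fold higher. HNMT, the histamine methyltransferase, was 2.65 and 8.29, and CES1, a carboxylesterase, was 6.15 and 9.79. The NRF2 target NQO1 was 14.78 and 14.84 and AKR1B10 was 13.12 and 15.19. Of 10 detected other steroid enzymes 1, the steroid sulfatase STS (5.42 and 7.78), was higher and 1, HSD17B6 (7.56 and 6.32), was lower. HSD3B1 (2.88 and 5.72) and HSD11B1 (5.19 and 2.87) stayed below both medians. Of 9 housekeeping genes, TBP was the 1 at least 2-fold apart, at 10.40 and 9.24.

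**Figure D5:**
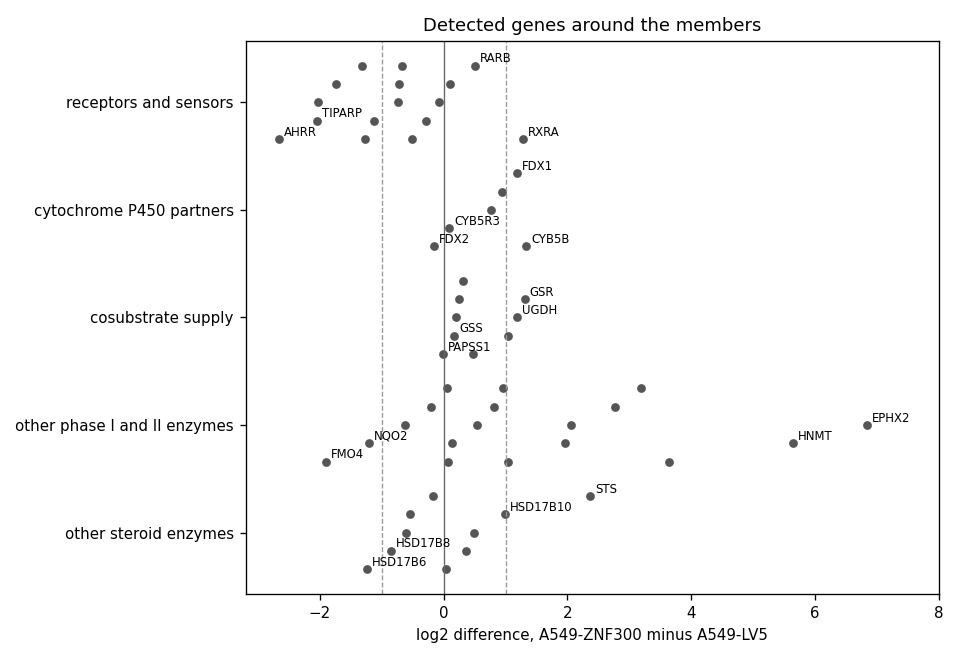
Log2 difference (A549-ZNF300 minus A549-LV5, horizontal axis) of the detected genes of 5 lists around the enzymes, 1 point per gene, spread vertically within a list for legibility; dashed lines mark 2-fold. Receptors and sensors lie mostly left of 0 (median -0.73) and other phase I and II enzymes mostly right of it (median 0.88).

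The plot of the surrounding genes shows the receptors and sensors on the lower side, from -2.66 for AHRR to 1.29 for RXRA, and the P450 partners and supply genes on a narrow band about or above 0.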

How the data were processed

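The authors deposited log2 signals for 54675 probe sets on 1 array per culture. The processing notes name MAS5 and affy, without versions, and the methods name SCAN/UPC normalization with a UPC filter of 0.2. Which of these made the signals is not stated. Other deposited columns are calls (present, marginal or absent) for 8187 probe sets, and the authors' ratio of control over ZNF300 with its direction, which was not used. Genes came from the 41097 probe sets that name 1 gene in the platform annotation, of all 54675. The 1801 naming several and the 11777 naming none were left out of counts.

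Signals were used as deposited, in Python 3.11.15 with pandas 2.3.3 and numpy 2.4.6. A bound ("at least N-fold") sets a signal below the array median at that median. The median is not a detection limit: MGST2, at 7.66 in A549-LV5, lay above it and was called absent. A gene's probe set was chosen before detection was decided. Counting was tested on simulated data in which only bright genes were shifted, by a fixed amount past 2-fold. It thus checked the code and did not cover dim genes. The number of arrays (1 per group) limits the precision. Named genes were the 15 detected genes with the largest difference in each direction, the 8 brightest, the 2 brightest of each role list and the 3 largest differences of each surrounding list, with AHR, ARNT, NFE2L2, KEAP1, NR1I2 and POR. Genes named beyond this rule were chosen after their values were seen. Genes and lists were chosen with earlier results of these data known. Promoter windows are 250 bases from RefSeq, matched by gene for 65 of the 91 genes. The deposited files name no genome build, so no position was taken from them, and promoter coordinates and gene order are those of RefSeq. Results were recomputed under 13 alternative settings.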

Additional observations from a re-analysis of the deposited data

How the results depend on the processing

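The count of genes at least 2-fold higher in A549-ZNF300 (15 as reported) depended on how dim probe sets were treated. With no filter, 29 of 91 were higher and 20 lower (all genes 17% and 19.5%). With detection at the 75th percentile of an array, 4 of 18 were higher and 2 lower (11.6% and 12.4%), and with the median required on both arrays, 3 of 26 and 2 (9.28% and 11.6%). With dim signals raised, 7 of 47 were higher and 5 lower (10.4% and 12.2%). Without probe sets ending in _x_at or _s_at, 9 of 33 were higher and 8 lower (14.5% and 16.3%). As reported, 15 of 47 were higher and 8 lower. The median log2 difference (0.33 as reported) was 2.23 in the authors' table, which holds only probe sets at least 2-fold apart. Centring on array medians gave 16 higher and 8 lower genes, quantile normalization 16 and 8, housekeeping centring 15 and 8, an offset of 16 on the linear signals 15 and 8, and the median over probe sets 15 and 6. The median stayed above 0 under every alternative run, and no named gene at least 2-fold apart changed sign. Of those under 2-fold, CYP2U1 (1.48, past 2-fold higher), CYP2R1 (0.09) and MGST3 (-0.10) changed sign on the median over probe sets, which takes in dim ones, MGST1 (-0.58) and SULT1A1 (-0.27) without _x_at and _s_at probe sets, and SULT2B1 on centring (0.0071) and quantile normalization (0.0021). Among the 64 named genes, GSTM3 (0.34 without _s_at probe sets), CYP26B1 (0.66 on the median over probe sets), CYP2A6 (-2.40 on that median), CYP3A5 (1.01 to 2.06 under 4 alternatives) and MGST1 (1.26 in the authors' table) crossed 2-fold, as did ARNT, POR, CYB5B, GSR and GCLM, and 11 enzymes did so when dim signals were raised. No paired analysis was possible because each culture has 1 array, and for the same reason no array could be left out.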
